A study of Mus musculus with 12 samples.

Results

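The genes described here encode the respiratory chain proteins that are made from nuclear DNA, followed across normal, fibrotic and cell-treated mouse skin. They were chosen by symbol from the deposited table: every gene whose symbol starts with Nduf, Uqcr, Atp5 or Cox4 to Cox8, with Sdha, Sdhb, Sdhc, Sdhd, Cyc1 and Cycs, kept where FPKM (fragments mapped to a gene, scaled to transcript length and to the library's mapped fragments, so a level per length) was 1 or more in at least 3 of the 12 libraries. The symbols gave 94 genes, and 92 of them passed, among 13761 genes tested of 23359 in the table. The 2 that did not pass were Cox7b2, listed at 0 in every library, and Cox8c. The symbol rule also takes in Ndufaf genes, which encode assembly factors of complex I, and a pair of genes, Atp5s and Atp5sl, that carry older ATP synthase names but are now called Dmac2l and Dmac2. They are kept as members and named as such.

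The skin came from C3H/HeJ mice and was macrodissected whole. Treated skin is 20-week fibrotic skin that received CD36highCD90+ fibroblasts by transplantation. The other groups are untreated fibrotic skin at 20 weeks, the same at 6 weeks, and normal skin, with 3 libraries in each of the 4 groups. The labels give no time point or age for normal skin, and do not say how fibrosis was induced, what the weeks are counted from, whether each library is a separate animal, or how the transplanted cells were given. The p-values below therefore measure the spread between libraries only, and in whole skin fewer cells of a type and less RNA per cell cannot be told apart.

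The respiratory chain sits in the inner membrane of mitochondria. Complexes I (NADH dehydrogenase, Nduf genes) and II (succinate dehydrogenase, Sdh genes) pass electrons to complex III (Uqcr genes and Cyc1), cytochrome c (Cycs) carries them to complex IV (cytochrome c oxidase, Cox genes), and complex V (ATP synthase, Atp5 genes) uses the resulting proton gradient to make ATP. A few core subunits are made inside mitochondria from mitochondrial DNA and are not analysed here, whereas all others are encoded in the nucleus. Several complex IV subunits come in a widespread form and a form restricted to muscle, lung or testis.

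Nuclear respiratory chain genes are classic targets of the factor NRF1, so promoters were searched for its binding motif. In the 250 bases before the RefSeq gene start (GRCm38.p6, 74 of the 94 members had a sequence), the motif (GCGCA, any base, GCGC, on either strand) occurred in 13 promoters (17.6%), against 5.3% of the promoters of all 17492 protein-coding genes in the RefSeq table. The ETS motif CCGGAAG was found in 16.2% of member promoters and 9.13% of all promoters, the CCAAT box (CCAAT) in 44.6% and 36.3%, and the E-box CAGCTG, which muscle genes often carry, in 8.11% and 11.6%. A match is a stretch of letters and shows no binding. The promoters below are those of the called members Cox6a1 (chr5:115348959-115349208, minus strand) and Ndufs6 (chr13:73328483-73328732, minus strand), with NRF1 matches in capitals, and of the muscle isoforms Cox7a1 (chr7:30183921-30184170, plus strand, CCAAT matches in capitals) and Cox8b (chr7:140900447-140900696, minus strand, E-box match in capitals), which had no call in any comparison. Each is written 5′ to 3′ on the gene's strand.
Cox6a1 promoter: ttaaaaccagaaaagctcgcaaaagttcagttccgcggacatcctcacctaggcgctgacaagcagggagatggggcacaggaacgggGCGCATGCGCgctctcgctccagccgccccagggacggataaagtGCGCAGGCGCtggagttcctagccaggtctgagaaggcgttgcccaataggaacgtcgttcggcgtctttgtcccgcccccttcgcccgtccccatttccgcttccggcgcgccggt
Ndufs6 promoter: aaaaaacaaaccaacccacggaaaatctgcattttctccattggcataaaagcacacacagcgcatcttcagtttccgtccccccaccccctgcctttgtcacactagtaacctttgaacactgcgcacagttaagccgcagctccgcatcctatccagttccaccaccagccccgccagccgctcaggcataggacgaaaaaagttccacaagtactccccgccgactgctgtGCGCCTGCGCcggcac
Cox7a1 promoter: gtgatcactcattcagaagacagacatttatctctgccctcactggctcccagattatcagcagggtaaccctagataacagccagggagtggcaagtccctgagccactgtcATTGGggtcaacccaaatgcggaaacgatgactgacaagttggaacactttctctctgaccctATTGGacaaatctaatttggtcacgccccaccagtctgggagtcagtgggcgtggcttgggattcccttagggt
Cox8b promoter: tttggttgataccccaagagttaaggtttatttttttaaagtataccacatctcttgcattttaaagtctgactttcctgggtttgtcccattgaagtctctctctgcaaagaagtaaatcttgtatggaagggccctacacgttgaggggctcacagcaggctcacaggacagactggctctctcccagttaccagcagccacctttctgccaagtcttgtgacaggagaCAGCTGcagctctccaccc

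The summed FPKM of 9 basal keratinocyte and follicle genes lay between 5857 and 9253 in every library. Single genes of this list differed between groups. Against normal skin 2 were higher and 6 lower at 6 weeks, at an adjusted p under 0.05 (88.9%, against 39.3% of all tested genes). At 20 weeks 1 was higher and 7 were lower (88.9%, against 33.5%). Other tissue in the samples differed between libraries. Summed FPKM of 20 skeletal muscle fibre genes was 138, 2271 and 3870 in treated skin, 1039, 2352 and 4651 in 20-week fibrotic skin, 1740, 97.1 and 3068 in 6-week fibrotic skin, and 5728, 222 and 9265 in normal skin (replicates 1 to 3). Summed FPKM of 10 wound keratinocyte genes was 15104, 3766 and 1409 in treated skin, 13971 to 21893 in fibrotic skin at 20 weeks, 22938 to 36386 at 6 weeks, and 451 to 641 in normal skin, so treated replicate 1 stood with the fibrotic libraries. Rescaling every library without the muscle, hair shaft and cornified envelope genes shifted the median log2 fold change of all genes to -0.37 for 6-week and -0.33 for 20-week fibrotic over normal skin, and to 0.24 for treated over fibrotic skin. As deposited those medians were within 0.1 of zero. The totals for this rescaling also left out short RNA genes and kept the wound keratinocyte genes. A second scaling, median of ratios, divided each library by the median ratio of its genes to their geometric means over libraries. Its factors ran from 0.956 to 1.04, and the medians of all genes stayed within 0.1 of zero. Shares of all genes called under it are not given. Directions below are as deposited unless a value is called rescaled, which means the first kind. The rescaling turned the sign of the fold change in 37 of the 92 tested respiratory chain genes at 6 weeks against normal skin, 47 at 20 weeks against normal skin, 3 at 20 against 6 weeks, 38 for treated against fibrotic skin and 6 for treated against normal skin.

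Summed over the 92 tested genes, respiratory chain FPKM was 14363, 14482 and 14042 in treated skin, 15696, 14456 and 14568 in 20-week fibrotic skin, 14891, 16621 and 16682 in 6-week fibrotic skin, and 12905, 11003 and 15668 in normal skin. Normal skin was the most spread of the groups, and its replicate 3 lay above every treated library. Complex IV and complex V gave most of the total in every library. Among single genes, the highest mean levels per class over the 12 libraries were those of Ndufa4, a complex IV subunit first counted to complex I (671 FPKM), Atp5k, a membrane subunit of ATP synthase (580 FPKM), and Uqcrh, the hinge protein of complex III (456 FPKM). Lower on the same scale came Ndufa3 (221 FPKM), an accessory subunit of complex I, Ndufs3 (103 FPKM), a core subunit of complex I, and Sdhd (88.7 FPKM), a membrane anchor of complex II. Cycs stood at 35.8 FPKM and Ndufaf1, the highest complex I assembly factor, at 11.8 FPKM.

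In fibrotic skin at 6 weeks, set against normal skin to show what early fibrosis carries, 18 respiratory chain genes rose and 2 fell of 92 tested, on the FPKM scale as deposited. That is 21.7% of the members, below the 39.3% of all tested genes called in this comparison at an adjusted p under 0.05 (17.6% higher and 21.7% lower). The direction depended on which scaling was used. After the rescaling 1 member was higher and 9 were lower (against 53.1% of all genes called). With median of ratios 27 were higher and 2 lower. Of the 20 calls, 3 were kept in the same direction after rescaling, those of Cox6a1, Cox7a2l and Atp5s. The median log2 fold change of the members was 0.16, against -0.05 for all tested genes, so relative to all genes it was 0.21 as deposited and 0.17 rescaled. All fold changes are on the log2(FPKM + 1) scale, which understates those of low genes, and adjusted p is limma's with Benjamini-Hochberg adjustment over all 13761 genes.

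**Figure D1:**
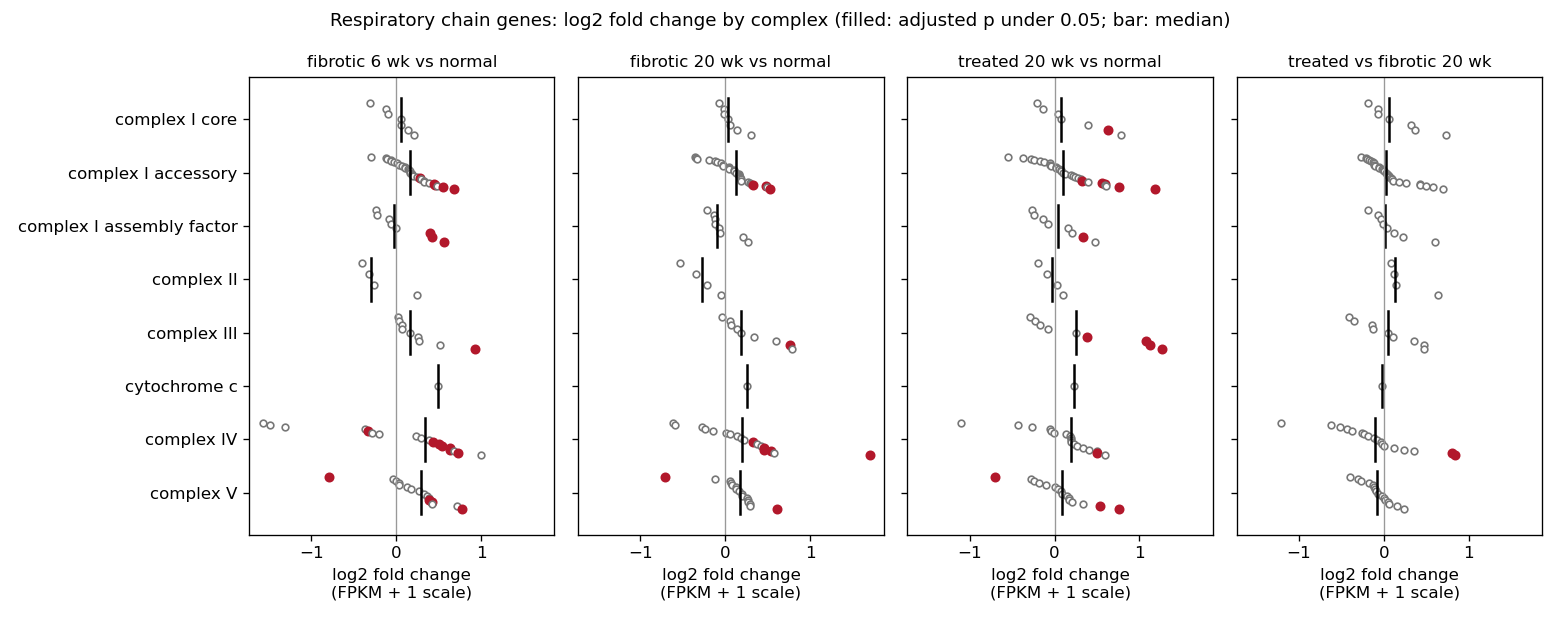
Log2 fold change of each tested respiratory chain gene (points) by complex, in 4 comparisons; filled points have an adjusted p under 0.05 and bars are class medians. Against normal skin the called genes lie mostly to the right at 6 weeks (18 higher, 2 lower as deposited, but 1 higher and 9 lower after rescaling), and few genes are filled for treated against fibrotic skin (2 of 92).

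Complex IV held the most of these calls, with 6 of its 18 tested genes higher and 1 lower (median 0.34). That is 38.9%, near the 39.3% of all tested genes called. The complex I assembly factor genes reached 37.5%. Cox6a1, the widespread form of a regulatory subunit of complex IV, measured 288, 326 and 305 FPKM in fibrotic skin at 6 weeks, against 190, 199 and 200 FPKM in normal skin. The groups lay well apart, and the log2 fold change was 0.64 ± 0.09 (SE, n = 3 each, limma adjusted p = 0.000901). After rescaling it was 0.28 (adjusted p = 0.0282), and the call held under each of the 24 alternatives run without a fold minimum. With a 2-fold minimum no member was called in this comparison. Cox6b1, which sits on the intermembrane side of complex IV, averaged 565 ± 50.2 FPKM in fibrotic and 398 ± 51.8 FPKM in normal skin (log2 fold change 0.51, limma adjusted p = 0.0108), but after rescaling the call was lost (0.14, adjusted p = 0.207). Cox8a, the widespread form of the smallest subunit, rose by a log2 fold change of 0.43 (limma adjusted p = 0.0121, and 0.527 rescaled), and Cox7a2, the widespread form of subunit VIIa, had 0.29 without a call (limma adjusted p = 0.0533) and -0.07 rescaled. Ndufa4 measured 748, 964 and 863 FPKM in fibrotic skin, against 440, 443 and 709 FPKM in normal skin. Its log2 fold change of 0.72 was just inside the threshold (limma adjusted p = 0.0497). It was outside it with the replicate number as a block over all 12 libraries (adjusted p = 0.0774) or rescaled (adjusted p = 0.161). With the block in a fit of these 6 libraries alone Ndufa4 kept its call. Cox5b (0.64) and Cox7b (0.53), chosen after their values were seen, completed the 6 and were not called after rescaling (adjusted p = 0.0642 and 0.231). The called gene that was lower was Cox7a2l, which helps to join complexes III and IV into supercomplexes, at 131, 132 and 152 FPKM in fibrotic and 183, 165 and 174 FPKM in normal skin (log2 fold change -0.33 ± 0.10, limma adjusted p = 0.0222). With the block in a fit of these 6 libraries alone its adjusted p was 0.0517.

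In complex III the called gene was Uqcrq, a small subunit beside cytochrome b. Uqcrq measured 103, 121 and 119 FPKM in fibrotic skin at 6 weeks, against 65.3, 44.4 and 72.3 FPKM in normal skin. No fibrotic library fell among the normal ones, and the log2 fold change was 0.93 ± 0.24 (SE, n = 3 each, limma adjusted p = 0.0132). All 9 complex III genes had a fold change above 0, from 0.03 to 0.93, as deposited. After rescaling 2 were above 0 and 7 below it (median -0.20), and the call of Uqcrq was lost (0.57, adjusted p = 0.0738).

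Complex V gave 3 higher genes and 1 lower of 16 (25%, against 39.3% of all tested genes, median 0.30). Atp5g3, one of several genes for the proton-carrying ring subunit of ATP synthase, averaged 675 ± 80.3 FPKM in fibrotic and 404 ± 122 FPKM in normal skin (log2 fold change 0.77, limma adjusted p = 0.0243), a call lost after rescaling (0.41, adjusted p = 0.0933). Atp5s, the gene now called Dmac2l, went the other way at a level far below the true subunits. It measured 3.66, 5.50 and 4.59 FPKM in fibrotic skin at 6 weeks and 8.89, 8.21 and 8.60 FPKM in normal skin, without overlap. Its log2 fold change was -0.79 ± 0.15 (SE, n = 3 each, limma adjusted p = 0.00348), and it kept its call under each of the 24 alternatives run without a fold minimum. The catalytic core gene Atp5b and its partner Atp5a1, both chosen after their values were seen, showed log2 fold changes of 0.17 and 0.04 without a call, and of -0.19 and -0.33 after rescaling.

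Of complex I, none of the 7 core subunit genes was called, from -0.31 for Ndufs7 (chosen after its values were seen) to 0.21. Rescaled, all 7 were below 0 and 1 was called. Among the 29 accessory subunit genes 5 were higher and none lower (17.2%, against 39.3% of all tested genes). Ndufa1, a short membrane subunit needed for assembly, measured 179, 202 and 202 FPKM in fibrotic skin and 109, 101 and 159 FPKM in normal skin, with a log2 fold change of 0.68 ± 0.16 (SE, n = 3 each, limma adjusted p = 0.00763), and lost its call after rescaling (0.32, adjusted p = 0.11). The smallest called rise was that of Ndufs6, a zinc-binding accessory subunit, at 0.28 (limma adjusted p = 0.0299); it was lost with the block (adjusted p = 0.0583) and turned to -0.08 after rescaling. Of the 8 assembly factor genes, Ndufaf4 rose by 0.56 (limma adjusted p = 0.0147), Ndufaf6 by 0.40 (limma adjusted p = 0.0283, and 0.0725 with the block in 6 libraries) and Ndufaf2, chosen after its values were seen, by 0.43. None of these 3 was called after rescaling, where 2 assembly factor genes were lower.

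None of the 4 complex II genes was called as deposited, and their median log2 fold change was -0.29, against 0.16, 0.34 and 0.30 for complexes III, IV and V. Rescaled, the medians were -0.65 for complex II and -0.20, -0.03 and -0.07 for complexes III, IV and V, and Sdha, Sdhb and Sdhc were then called lower (limma adjusted p = 0.0148, 0.0476 and 0.0149). Sdha, the flavoprotein that oxidises succinate, measured 54.4, 48.4 and 62.3 FPKM in fibrotic skin and 79.3, 56.0 and 87.5 FPKM in normal skin. The groups overlapped for Sdha (log2 fold change -0.41, limma adjusted p = 0.101). Within normal skin each of the 4 was higher in replicates 1 and 3, the libraries with the most muscle RNA, than in replicate 2. That was not particular to complex II. The summed FPKM of every other class was also lowest in normal replicate 2, as was that of all members (12905, 11003 and 15668 in replicates 1 to 3). The part of muscle in these values was not tested. Cycs had a log2 fold change of 0.50 with no call (limma adjusted p = 0.0837).

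Single libraries moved the 6-week calls. For these and later counts with a library left out, the share of all genes called is not given. Without 6-week replicate 2 there were 8 called members, 11 without 6-week replicate 3 or normal replicate 1, 13 without normal replicate 2 and 39 without normal replicate 3, the normal library with the highest respiratory chain sum. Leaving out 1 library ended the call of Atp5g3 (adjusted p up to 0.084, without 6-week replicate 2), Cox7a2l (up to 0.0785, without 6-week replicate 2), Ndufaf6 (up to 0.101, without 6-week replicate 2), Ndufaf4 (up to 0.0579, without normal replicate 1), Ndufs6 (up to 0.112, without normal replicate 2) and Cox8a (0.0508, without 6-week replicate 2). Ndufa4 lost its call without any of 9 libraries, up to an adjusted p of 0.154 without normal replicate 1. Cox6a1, Cox6b1, Uqcrq, Ndufa1 and Atp5s kept theirs whichever library was left out, although those of Cox6b1, Uqcrq and Ndufa1 were lost after rescaling.

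**Figure D2:**
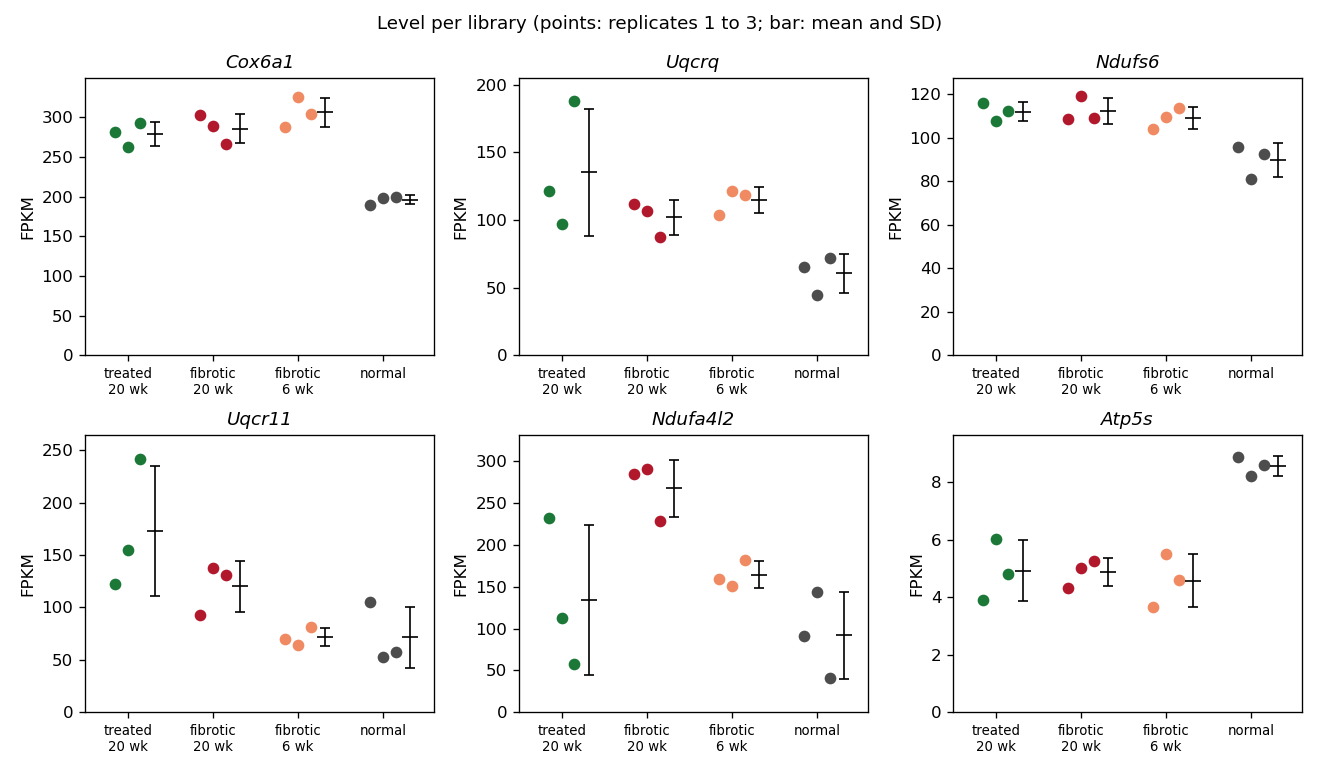
FPKM of 6 respiratory chain genes in each library (points, replicates 1 to 3 from left to right within a group) with the mean and SD of each group (bars). Cox6a1 stands between 263 and 326 in all 9 treated and fibrotic libraries and between 190 and 200 in normal skin, while Atp5s has the opposite order, and Ndufa4l2 is most spread in treated skin; the difference of Ndufs6 turned sign after rescaling.

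In fibrotic skin at 20 weeks, set against the same normal libraries, 10 members rose and 1 fell of 92 (12%, against 33.5% of all tested genes, 15.3% higher and 18.2% lower). Again rescaling turned the split, to 1 higher and 16 lower (against 47.8% of all genes called). Of the 11 calls 2 were kept in the same direction, those of Ndufa4l2 and Atp5s. Median of ratios gave 12 higher and 1 lower. The member median was 0.13 and that of all genes -0.04, a difference of 0.16 as deposited and 0.12 rescaled. Both comparisons share the normal libraries, and 7 genes were called in each (35% of the 6-week calls and 63.6% of the 20-week calls). The overlap over all tested genes is not given, so that of the members is not read as a result about them.

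Cox6a1 measured 303, 290 and 266 FPKM in fibrotic skin at 20 weeks, against 190, 199 and 200 FPKM in normal skin (log2 fold change 0.54 ± 0.09, SE, n = 3 each, limma adjusted p = 0.00265). Its call ended only under rescaling among the 22 alternatives run without a fold minimum, at 0.20 (adjusted p = 0.0893). Uqcrq averaged 102 ± 12.9 FPKM in fibrotic and 60.7 ± 14.5 FPKM in normal skin (log2 fold change 0.76, limma adjusted p = 0.0351), and Atp5s averaged 4.87 ± 0.493 and 8.57 ± 0.344 FPKM (log2 fold change -0.71, limma adjusted p = 0.0071). The fall of Atp5s kept its call under each of the 22 alternatives run without a fold minimum. Cox6b1 (0.45, limma adjusted p = 0.0211), Ndufs6 (0.32, limma adjusted p = 0.0202) and Cox7a2 (0.32, limma adjusted p = 0.039) rose by less. After rescaling Ndufs6 and Cox7a2 both turned to -0.01, and Uqcrq (0.43, adjusted p = 0.174) and Cox6b1 (0.11, adjusted p = 0.33) lost their calls. Calls at 20 weeks that were absent at 6 weeks included Atp5d, the delta subunit of the ATP synthase rotor, at 120, 155 and 141 FPKM in fibrotic and 111, 90.9 and 72.8 FPKM in normal skin (log2 fold change 0.61, limma adjusted p = 0.0193), and Ndufs5, an accessory subunit of complex I (0.53, limma adjusted p = 0.0248). Neither was called after rescaling (0.27, adjusted p = 0.243 for Atp5d and 0.19, adjusted p = 0.414 for Ndufs5). Cox8a, called at 6 weeks, had a log2 fold change of 0.13 here (limma adjusted p = 0.365) and of -0.20 rescaled.

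The largest rise among the members at 20 weeks was that of Ndufa4l2, a relative of Ndufa4 that is induced by hypoxia and lowers the use of oxygen. Ndufa4l2 measured 284, 290 and 228 FPKM in 20-week fibrotic skin, 160, 151 and 182 FPKM in 6-week skin, and 90.8, 144 and 40.7 FPKM in normal skin. The 20-week libraries lay above all others of these groups, and against normal skin the log2 fold change was 1.701 ± 0.50 (SE, n = 3 each, limma adjusted p = 0.0258), or 1.37 after rescaling (adjusted p = 0.0371). At 6 weeks it was 1.005 without a call (limma adjusted p = 0.132). Its call at 20 weeks was lost without either of fibrotic replicates 1 and 2 or normal replicates 1 and 3 (highest adjusted p = 0.0872). As a share of the summed FPKM of Ndufa4l2 and Ndufa4, it made up 23.8%, 29.1% and 24.4% in 20-week fibrotic skin, 17.6%, 13.6% and 17.4% in 6-week fibrotic skin, and 17.1%, 24.5% and 5.42% in normal skin. Of 15 genes of the hypoxia response, 12 were higher and none lower at 20 weeks (80%, against 15.3% of all tested genes called higher), and 9 were higher and none lower at 6 weeks (60%, against 17.6%). After rescaling 11 were higher and none lower at 20 weeks, and 7 higher and 1 lower at 6 weeks. Among them was Egln3, an oxygen-sensing hydroxylase, with a log2 fold change of 3.50 at 20 weeks (limma adjusted p = 0.00546). Ndufa4l2 overlaps Shmt2 on the opposite strand, and whether the counting used strand is not given in the sources used here.

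Complex II had no call at 20 weeks as deposited, with all 4 fold changes below 0 and a median of -0.28. Rescaled, the median was -0.61 and Sdha, Sdhb and Sdhc were called lower (limma adjusted p = 0.0283, 0.0135 and 0.0423). Sdhb, the iron-sulfur subunit, measured 46.8, 44.8 and 48.6 FPKM in fibrotic skin and 76.9, 50.5 and 81.9 FPKM in normal skin (log2 fold change -0.54, limma adjusted p = 0.0649). No complex I core gene was called (median 0.03), and no assembly factor gene.

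Without fibrotic replicate 1, 2 or 3 the 20-week count was 4, 3 or 6, and without treated replicate 1, which enters the estimate of spread, it was 18. Uqcrq lost its call without either of fibrotic replicates 1 and 2 or normal replicates 1 and 2 (adjusted p up to 0.113), Atp5d without fibrotic replicates 2 or 3 or normal replicate 3 (up to 0.0693), and Cox6b1 and Ndufs5 each without 4 of the libraries (up to 0.0773 and 0.0856). Ndufs6 lost it without fibrotic replicate 2 or normal replicate 2 (up to 0.0765), and Cox7a2 without any of 9 libraries (up to 0.125). Cox6a1 and Atp5s kept theirs whichever library was left out.

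Between fibrotic skin at 20 weeks and at 6 weeks, which asks how the late state differs from the early one, no member was called by limma at an adjusted p under 0.05, against 0.0363% of all tested genes (0.00727% higher and 0.0291% lower). At an unadjusted limma p under 0.05 there were 10 of the 92 members, against 2737 of all 13761 tested genes, a larger share. The median log2 fold change of the members was -0.09 (0.02 for all genes). The member with the smallest p was Ndufaf6, which works in complex I assembly, at 3.15, 2.63 and 2.10 FPKM at 20 weeks and 3.45, 4.36 and 4.12 FPKM at 6 weeks (log2 fold change -0.46, 95% interval -0.74 to -0.19, limma adjusted p = 0.109). Next came Atp5d (0.48, limma adjusted p = 0.161), Cox8a (-0.30, limma adjusted p = 0.18), Ndufs4, an accessory subunit of complex I (-0.37, limma adjusted p = 0.187), and Uqcr11, a small subunit of complex III (0.72, limma adjusted p = 0.22). For Cox6a1 the interval was -0.30 to 0.11 and for Ndufa4l2 it was -0.41 to 1.80, so a change of Ndufa4l2 in either direction was within the error.

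In treated skin, set against untreated fibrotic skin at 20 weeks to show what transplantation went with, 2 members were higher and none lower of 92 (2.17%, against 15.3% of all tested genes, 4.45% higher and 10.9% lower). The member median was -0.0039 and that of all genes -0.0044, and after rescaling 15 members were higher and none lower (16.3%, against 21.6% of all genes), with medians of 0.27 for the members and 0.24 for all genes. Both called members were low and of restricted tissue type. Cox4i2, the lung form of complex IV subunit 4, measured 2.66, 3.39 and 4.70 FPKM in treated skin and 1.07, 2.23 and 1.42 FPKM in fibrotic skin (log2 fold change 0.84 ± 0.24, SE, n = 3 each, limma adjusted p = 0.0448). Cox6b2, the testis form of subunit VIb, measured 3.95, 6.81 and 5.49 FPKM in treated skin and 1.78, 3.1 and 3.11 FPKM in fibrotic skin (log2 fold change 0.81 ± 0.24, limma adjusted p = 0.0453). Neither pair of groups overlapped, but each call was lost under 15 of the 21 alternatives run. Their widespread partners stood far higher and were not called: Cox4i1 averaged 456 ± 61.7 FPKM in treated and 355 ± 18.4 FPKM in fibrotic skin (log2 fold change 0.35, limma adjusted p = 0.123), and Cox6b1 averaged 464 ± 43.3 and 541 ± 18.0 FPKM (log2 fold change -0.23, limma adjusted p = 0.225). After rescaling Cox4i1 was called higher (0.64, adjusted p = 0.0386) and Cox6b1 turned to 0.06. Pericyte and vascular smooth muscle genes, among which Cox4i2 is often found, summed to 71.7, 296 and 394 FPKM in treated skin and 101, 193 and 185 FPKM in fibrotic skin, with none of the 11 called, and their part in the result was not tested.

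The members with the next smallest p were Sdhb, Ndufa11, an accessory subunit at the membrane arm of complex I, and Ndufs8, a core iron-sulfur subunit of complex I. Sdhb measured 58.4, 73.8 and 91.4 FPKM in treated skin, against 46.8, 44.8 and 48.6 FPKM in fibrotic skin (log2 fold change 0.64, 95% interval 0.19 to 1.09, limma adjusted p = 0.0586). Ndufa11 had a log2 fold change of 0.59 (limma adjusted p = 0.0654) and Ndufs8 of 0.32 (limma adjusted p = 0.0885). After rescaling all 3 were called higher (adjusted p = 0.0305, 0.0343 and 0.0333). Ndufa4l2 measured 232, 112 and 57.6 FPKM in treated skin and 284, 290 and 228 FPKM in fibrotic skin (log2 fold change -1.21, 95% interval -2.31 to -0.10, limma adjusted p = 0.118), and Ndufa4 measured 730, 448 and 382 FPKM in treated and 908, 708 and 708 FPKM in fibrotic skin (log2 fold change -0.62, limma adjusted p = 0.122). In both genes treated replicate 1 lay within the fibrotic range and the other treated libraries below it. Without treated replicate 1, the library with fibrotic levels of wound keratinocyte genes, 14 members were called (12 higher, 2 lower). Leaving out a library changes the estimate of spread for every gene. The share of all genes called in that fit is not given, so the count is not read as a result about the members. For Cox6a1, treated and fibrotic skin at 20 weeks differed by a log2 fold change of -0.03 (95% interval -0.24 to 0.17), and by 0.26 after rescaling (adjusted p = 0.0659).

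Against normal skin, treated skin had 14 members higher and 1 lower of 92 (16.3%, against 20.7% of all tested genes, 7.57% higher and 13.2% lower). The member median was 0.12 and that of all genes -0.06. After rescaling 8 members were higher and 2 lower, and 9 of the 15 calls were kept in the same direction. The share of all genes called after rescaling is not given here. Median of ratios gave 17 higher and 1 lower. In complex III 4 of the 9 genes were higher and none lower (44.4%, against 20.7% of all tested genes). Uqcr11 measured 122, 154 and 241 FPKM in treated skin, against 105, 52.5 and 57.4 FPKM in normal skin (log2 fold change 1.27 ± 0.30, SE, n = 3 each, limma adjusted p = 0.0185). Uqcrq (1.12) and Uqcr10 (1.08), a further small subunit of complex III, both chosen for this comparison after their values were seen, rose by nearly as much. Cyc1, the cytochrome c1 of complex III, rose by 0.38 (limma adjusted p = 0.0461), a call that held under 4 of the 22 alternatives run.

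In complex I, Ndufb7, an accessory subunit facing the intermembrane space, measured 60.7, 68.5 and 108 FPKM in treated skin and 50.4, 29.9 and 24.0 FPKM in normal skin (log2 fold change 1.19 ± 0.27, SE, n = 3 each, limma adjusted p = 0.0165). Ndufs8 rose by 0.63 (limma adjusted p = 0.008), the one core gene called in any of the comparisons. Ndufs6 (0.32, limma adjusted p = 0.0316) and Ndufaf2 (0.34, limma adjusted p = 0.0436) also rose. Atp5d averaged 154 ± 21.2 FPKM in treated and 91.6 ± 19.1 FPKM in normal skin (log2 fold change 0.76, limma adjusted p = 0.0136). Cox6a1 measured 281, 263 and 293 FPKM in treated skin, a log2 fold change of 0.51 over normal skin (limma adjusted p = 0.00729), and was the one complex IV gene called. Atp5s, at 3.92, 6.03 and 4.83 FPKM in treated skin, fell by 0.71 on the log2 scale (limma adjusted p = 0.0131). Atp5s, Cox6a1, Ndufs6 and Uqcrq were the 4 members called in all 3 comparisons that share the normal libraries, and 57 of the 92 were called in none of the 5 comparisons. The same shares over all tested genes are not given, so these counts are not read as a result about the members. In a fit of these 6 libraries alone no member was called. Without normal replicate 3 there were 4 called members, and 9 without normal replicate 2 or treated replicate 3. Without normal replicate 3 the calls of Uqcr11 (adjusted p = 0.0764), Ndufb7 (0.0689), Atp5d (0.0537) and Atp5s (0.0503) were lost, and that of Uqcr11 also without normal replicate 2 (0.0567). Ndufs6 lost its call without any of 4 libraries (up to 0.103) and Ndufaf2 without any of 10 (up to 0.131), while Cox6a1 and Ndufs8 kept theirs.

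The muscle-type forms of complex IV subunits were lowest in the same libraries as the muscle fibre genes, while their order at the high end differed. Cox7a1, the heart and muscle form of subunit VIIa, measured 1.32, 32.7 and 41.6 FPKM in treated skin, 10.2, 22.0 and 36.3 FPKM in 20-week fibrotic skin, 15.3, 2.67 and 23.9 FPKM in 6-week fibrotic skin, and 62.6, 4.17 and 99.7 FPKM in normal skin. Cox8b ranged from 2.54 to 102 FPKM and Cox6a2 from 0.846 to 41.8 FPKM over the 12 libraries. Cox8b was highest in treated replicate 3, where the muscle fibre sum was 3870 FPKM. In normal replicate 3, with a muscle fibre sum of 9265 FPKM, Cox8b measured 84.8 FPKM. All 3 genes were lowest in the same libraries, treated replicate 1, 6-week replicate 2 and normal replicate 2, which also had the 3 lowest sums of muscle fibre genes. None was called in any comparison, with log2 fold changes against normal skin of -1.49 for Cox7a1, -1.57 for Cox8b and -1.31 for Cox6a2 at 6 weeks, each within its error (adjusted p from 0.326 to 0.458, limma).

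**Figure D3:**
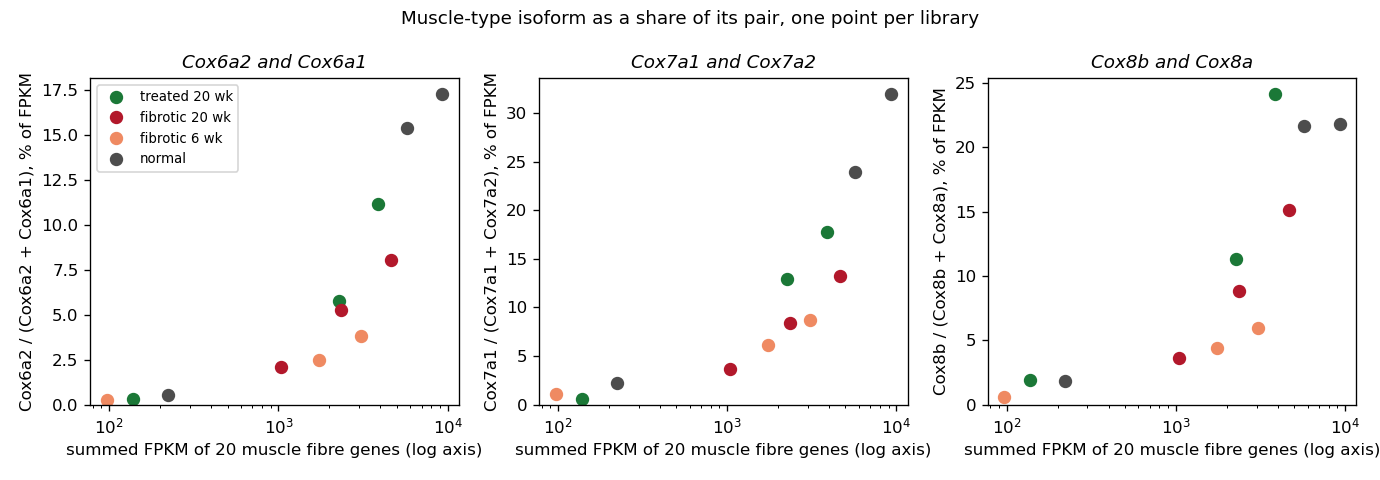
Share of the muscle-type isoform in the summed FPKM of the pair (percent, vertical) against the summed FPKM of 20 muscle fibre genes (horizontal, log axis), 1 point per library coloured by group. Cox7a1 makes up 0.546% of its pair in treated replicate 1 and 32.0% in normal replicate 3, and for Cox7a1 libraries of all 4 groups lie roughly along a common rise. The share of Cox8b is highest in treated replicate 3 (24.2%), above normal replicate 3 (21.8%), which has more muscle RNA.

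As a share of the summed FPKM of Cox7a1 and Cox7a2, Cox7a1 made up 0.546%, 12.9% and 17.8% in treated skin, 3.71%, 8.39% and 13.3% in 20-week fibrotic skin, 6.16%, 1.10% and 8.71% in 6-week fibrotic skin, and 23.9%, 2.23% and 32.0% in normal skin. Within each group the library with the least muscle RNA had the smallest share. The restricted forms that are not of muscle type kept a small share: Cox4i2 made up 0.318% to 0.911% of its pair and Cox6b2 0.317% to 1.58% in every library. Genes of brown fat, another tissue rich in respiratory chain, summed to 41.1, 150 and 138 FPKM in treated skin, 27.7 to 50.004 FPKM in the 6 fibrotic libraries and 107 to 138 FPKM in normal skin, so the fibrotic libraries lay below the normal ones. Of its 6 tested genes 1 was lower in 6-week than in normal skin (16.7%, against 39.3% of all tested genes called). In 20-week fibrotic against normal skin 2 were lower (33.3%, against 33.5%), and 1 was higher in treated than in fibrotic skin (16.7%, against 15.3%). Its defining marker Ucp1 averaged at most 0.146 FPKM in a group, and Zic1 was listed at 0 in at least 1 library. The list shares Elovl3 with that of the sebaceous gland. Sebaceous gland genes summed to 333, 1665 and 1957 FPKM in treated skin and 541 to 1159 FPKM in normal skin. In fibrotic skin they summed to 175 to 269 FPKM at 6 weeks and 220 to 258 FPKM at 20 weeks. The brown fat sums are therefore not read as an amount of brown fat. The part of brown fat or sebaceous gland in the results was not tested.

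Transcript GC content moved with the fold changes. Across the 92 tested members, Spearman's rho between transcript GC content and log2 fold change was -0.31 for 6 weeks against normal skin, 0.11 for 20 weeks against normal skin, 0.51 for 20 weeks against 6 weeks, 0.47 for treated against fibrotic skin and 0.50 for treated against normal skin. Over all tested genes with a GC value the same figures were -0.01, 0.05, 0.11, 0.31 and 0.37. These are descriptions across genes, which share libraries and are not replicates. The median GC content of the 14 members higher in treated than in normal skin was 56.7%, that of the 18 higher at 6 weeks 50.8%, and that of all 92 members 52.2%. GC content went with library as well as group: per library, the rho of the members' deviations from their own means was 0.36 in normal replicate 1, -0.0016 in replicate 2 and -0.51 in replicate 3. After a smooth trend on transcript GC content and length was removed from each library, an alternative chosen after seeing the data, 5 members were higher and 3 lower at 6 weeks and 6 higher and 3 lower in treated against normal skin, with member medians of -0.04 and -0.03. With the trend removed, a fit of the 6 libraries of 6-week and normal skin alone with the replicate block gave 4 higher and 9 lower. The shares of all genes called in the fits with the trend removed are not given. Of the calls as deposited, 6 of 20 at 6 weeks, 5 of 11 at 20 weeks, 0 of 2 for treated against fibrotic skin and 6 of 15 for treated against normal skin were kept in the same direction. Cox6a1 (0.52, limma adjusted p = 0.00581) and Atp5s (-1.07, limma adjusted p = 0.00121) were among those kept at 6 weeks, whereas Uqcrq (adjusted p = 0.108), Ndufa1 (0.664), Cox6b1 (0.301) and Atp5g3 (0.0622) lost theirs. In treated against normal skin Cox6a1 lost its call (0.11, adjusted p = 0.53) and Cyc1 turned to -0.07. The part of GC content in the results was not otherwise tested.

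**Figure D4:**
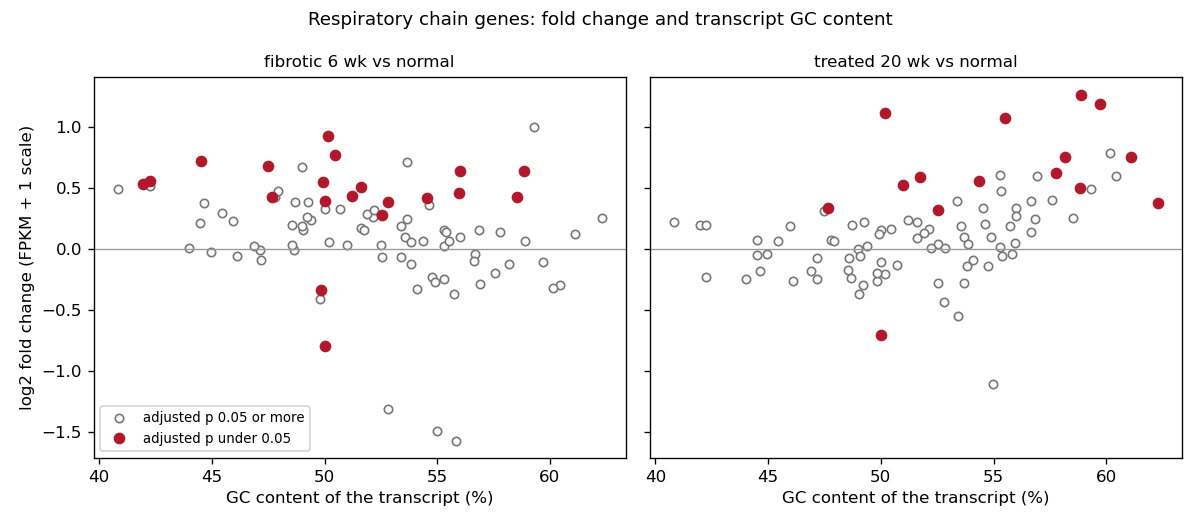
Log2 fold change of each tested respiratory chain gene against the GC content of its transcript (percent), for 6-week fibrotic against normal skin (left) and treated against normal skin (right); filled points have an adjusted p under 0.05. The called genes spread over the GC range on the left (rho -0.31, n = 92 genes) and lie mostly at high GC on the right (rho 0.50); after rescaling the left comparison had 1 member higher and 9 lower.

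Other mitochondrial genes were described by lists chosen with earlier results known. Of 76 mitochondrial ribosomal protein genes, which build the machinery that translates the mitochondrially encoded subunits, 32 were higher and none lower at 6 weeks against normal skin (42.1%, against 39.3% of all tested genes in either direction and 17.6% higher; median 0.28). At 20 weeks 18 were higher and 2 lower (26.3%, against 33.5%), and in treated against normal skin 15 were higher and 1 lower (21.1%, against 20.7%). After rescaling 6 were higher and 12 lower at 6 weeks (median -0.06), and 3 higher and 20 lower at 20 weeks. Of 15 genes for import, porins and chaperones, 7 were higher and none lower at 6 weeks (46.7%), and 1 higher and 1 lower rescaled. Among the 7 was the chaperonin Hspd1, at 127 ± 6.83 FPKM in fibrotic and 80.3 ± 11.01 FPKM in normal skin (log2 fold change 0.67, SD, n = 3 each, limma adjusted p = 0.0095; rescaled 0.31, adjusted p = 0.0707). Of 13 citric acid cycle genes, none was higher and 1 was lower at 6 weeks, Cs, the citrate synthase (log2 fold change -0.42, limma adjusted p = 0.0131). That is 7.69%, and after rescaling 7 were lower. Of 19 complex IV assembly genes, 3 were higher and 1 lower at 6 weeks (21.1%), and 1 higher and 4 lower rescaled. In treated against fibrotic skin at 20 weeks 2 were lower, among them Pet100. That is 10.5%, near the 10.9% of all tested genes called lower. After rescaling 4 were higher and none lower.

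Of 14 regulators of respiratory chain genes, 1 was higher and 3 were lower at 6 weeks (28.6%, against 39.3% of all tested genes), 2 higher and 3 lower at 20 weeks (35.7%, against 33.5%), 2 higher and none lower in treated against fibrotic skin (14.3%, against 15.3%), and 4 higher and 2 lower in treated against normal skin (42.9%, against 20.7%). After rescaling 1 was higher and 8 were lower in both comparisons of fibrotic with normal skin. Pprc1, a coactivator related to PGC-1alpha that responds to growth signals, averaged 15.0 ± 0.921 FPKM at 6 weeks and 7.77 ± 0.196 FPKM in normal skin (SD, n = 3 each, log2 fold change 0.86). Ppargc1a, which encodes PGC-1alpha itself, was low throughout and fell to 0.309 ± 0.154 FPKM at 6 weeks, against 1.34 ± 0.536 FPKM in normal skin (log2 fold change -0.81, limma adjusted p = 0.0116). Sirt3, a mitochondrial deacetylase of respiratory chain proteins, averaged 5.04 ± 1.49 FPKM in treated skin and 2.82 ± 0.454 FPKM in fibrotic skin at 20 weeks (log2 fold change 0.64, limma adjusted p = 0.0334), and 5.76 ± 0.511 FPKM in normal skin. The genes named from these lists were chosen after their values were seen.

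On the GRCm38 assembly, exons of 29 of the 94 members overlap those of another gene, 4 of them on the same strand. Of the genes named above, Ndufs6 (with Mrpl36), Ndufa4l2 (Shmt2), Atp5d (Cbarp), Ndufa11 (Vmac), Ndufs3 (Kbtbd4), Ndufa3 (Tfpt), Cox4i1 (Emc8), Cox6a2 (Itgad), Atp5a1 (Haus1) and Ndufaf2 overlap a gene on the opposite strand, so some of their reads may belong to the partner. Cox6a1 (chromosome 5, 115345642 to 115348981), Uqcrq (chromosome 11, 53427922 to 53430831) and Atp5s (chromosome 12, 69724950 to 69744660) overlap none. Many respiratory chain genes have processed pseudogenes, and how reads were divided among near-identical copies is not given in the sources used here.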

How the data were processed

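Whole skin RNA of 12 libraries was sequenced from polyadenylated RNA with a stranded kit, per the labels' protocols. The authors deposited 1 table of FPKM values with a column for each library, and 0 columns lacked a sample. Per the submitters' processing notes the build was mm10 and the tools were Bowtie2 2.2.3, Cufflinks 2.2.1, FastQC 0.11.2, R 3.1.1, SAMtools 1.0, TopHat2 2.0.13 and cutadapt 1.7.1. The sources used here do not state their roles, the annotation, the strand setting or any scaling across columns. Low values showed no whole-read steps, so the depth is unknown and no counting error is given. No columns were identical.

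Values were taken as log2(FPKM + 1), genes reaching 1 FPKM in 3 or more libraries were kept, and a group mean was fitted over all 12 libraries with limma 3.58.1 (R 4.3.3, intensity trend). P-values were adjusted by Benjamini and Hochberg over all 13761 genes within each of 5 comparisons, and called under 0.05. An exact permutation of 3 against 3 libraries cannot go below 0.1 (two-sided). The fitting code was tested on simulated data. Coordinates and transcript GC content come from GENCODE M21 (GRCm38, the mm10 assembly) and promoters from RefSeq.

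The members and lists were chosen with earlier results of these data known. Members named are the isoform pairs, the called members with the highest and lowest fold change per class and comparison, the highest member per class, and the 5 smallest p where fewer than 5 were called. The labels number replicates in each group without saying that a number is shared. Deviations from the group means correlated weakly between 6-week fibrotic and normal libraries of the same number (0.16, 0.23 and 0.11). Fits with the number as a block were also run, over all 12 libraries and, for this pair of groups, in its 6 libraries alone. Every other pair of groups had a negative correlation among its same-number libraries, although the largest value, 0.29, was that of 20-week fibrotic and treated replicate 1. Libraries of unlike number were not compared in this way, so the values do not show whether numbers pair. Alternatives covered the pseudocount, filters, scaling, libraries in the fit, library weights, the block, a 2-fold minimum, left-out libraries and, chosen after seeing the data, GC content and length, a muscle covariate and the block in 6 libraries. The numbers of alternatives given for single genes leave out the 2-fold minimum.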

Additional observations from a re-analysis of the deposited data

How the results depend on the processing

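Rescaling without muscle, hair shaft and cornified envelope genes gave 10 called members at 6 weeks against normal skin (median -0.20), 17 at 20 weeks against normal skin (median -0.21) and 15 for treated against fibrotic skin (median 0.27). Under it Ndufs6 turned to -0.079 at 6 weeks and to -0.011 at 20 weeks, and Cox7a2 to -0.0109 at 20 weeks. Removing a trend on GC content and length gave 8 calls at 6 weeks (median -0.0365), a median of -0.0269 at 20 weeks, 0 calls for treated against fibrotic skin, and 9 calls for treated against normal skin (median -0.0308), with Ndufs6 at -0.00965 at 6 weeks and Cyc1 at -0.0696 in treated against normal skin. Median of ratios gave 29 calls at 6 weeks, 13 at 20 weeks, 2 for treated against fibrotic and 18 for treated against normal skin. A muscle covariate gave 18 calls at 20 weeks against normal skin and 11 for treated against fibrotic skin. Library weights gave 19 at 20 weeks, 1 between 20 and 6 weeks, 0 for treated against fibrotic and 8 for treated against normal skin. Fits of the 6 libraries compared gave 1, 0 and 0 in the last 3 of these. A 2-fold minimum left 0, 1, 0 and 4 calls at 6 weeks, at 20 weeks, for treated against fibrotic and for treated against normal skin. The 2 calls for treated against fibrotic skin became 1 with a pseudocount of 0.1 and 0 without a filter. They are 0 by construction with a mean of 5 FPKM or more or without tissue-restricted isoforms, since both genes are such isoforms with means of 2.17 (Cox4i2) and 4.01 FPKM (Cox6b2). The cause was not tested in the others.

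With the replicate number as a block over all 12 libraries, calls were 14 at 6 weeks, 11 at 20 weeks, 0 between 20 and 6 weeks, 1 for treated against fibrotic skin and 10 for treated against normal skin. With the block in the 6 libraries of 6-week and normal skin there were 17 calls, and 13 with the GC and length trend also removed (median -0.0365, Ndufs6 at -0.00965). At 6 weeks the block changed the call of no other named gene than those given with it above, before any GC correction. In the other comparisons, where same-number libraries did not all correlate positively, Cox7a2, Cox4i2, Cox6b2, Cyc1, Ndufaf2 and Ndufs6 lost a call and Sdhb gained one (adjusted p = 0.0482).

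Leaving out 1 library gave 8 to 39 calls at 6 weeks, 3 to 18 at 20 weeks, 0 to 0 between 20 and 6 weeks, 0 to 14 for treated against fibrotic and 4 to 18 for treated against normal skin. Medians ranged from 0.07 to 0.28, 0.0027 to 0.21, -0.12 to -0.04, -0.03 to 0.04 and -0.0325 to 0.23. With 3 libraries a group and unknown depth, small differences of low genes such as Cox4i2 cannot be resolved.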
